A study of Homo sapiens with 6 samples.

Results

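The actin, contractile and intermediate filament cytoskeleton was followed as a list of 44 genes, named by symbol and read from every probe set that the array's annotation gives to them. Of these, 39 had at least 1 probe set of their own, out of 11963 genes measured in all. The parental group held 3 samples of NCI-H1975, an established line from a human lung carcinoma of the non-small cell type that carries mutant EGFR. The resistant group held 3 samples of WZR6, a single clone picked from NCI-H1975 cells that had been grown in rising amounts of WZ4002, an inhibitor of the EGFR kinase, so its values describe 1 clone. Both groups grew in RPMI with 5% serum and were taken while growing exponentially. The sources used here do not say whether the drug was present when WZR6 was harvested. Nor do they say that the samples of a group came from separate cultures, so the p-values measure only the spread between these samples, which may be technical.

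Actin filaments carry the shape and the pulling force of a cell. Tropomyosins, calponins and transgelins coat them, alpha-actinins and fascin tie them into bundles, myosin II slides them past each other, and talin, vinculin and paxillin fasten them to the membrane at focal adhesions. Several of these proteins exist in a form found in nearly every cell and in a form abundant in smooth muscle and in contractile stromal cells. Vimentin, nestin and the lamins belong to the intermediate filaments, a separate set of polymers in the cytoplasm and under the nuclear membrane.

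Each sample was hybridised to 1 array (n = 3 in each group throughout). Values are log2 of the deposited intensity, and a gene is read from its brightest probe set. A gene was called at an adjusted p under 0.05 in limma (two-sided, Benjamini-Hochberg over all 11963 genes), and differences are WZR6 minus parental with their standard error (SE). Over all probe sets, log2 values correlated with r of 0.9978 to 0.9983 between arrays of a group and 0.9815 to 0.9826 across groups. Array medians ran from 163 to 170 on the intensity scale. Detection calls are not part of the table, so the lower quartile of all log2 values, 5.27, is used below to mark dim probe sets. No member had both group means below it.

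Among the 39 measured members, 20 were higher in WZR6, 11 were lower and 8 were not called. Across all genes, 48.0% were called, 24.5% higher and 23.5% lower. Brighter genes were called more often. When only the 6916 genes above the median level of all values were fitted, 36 members among them, 74.3% were called. Of those 36 members, 18 were higher and 11 lower in that fit. The part of signal level in the member counts was not tested. The groups did not overlap for 33 of the 39 members, against 56.3% of all genes. The median difference of the members was 0.16, beside 0.02 for all genes. Most changes were small. Only 4 called members differed by 2-fold or more, ACTG2, MYL9, ACTA2 and TAGLN, and all of them were higher in WZR6. Of all genes, 4.78% were called at that size, 1.36% higher and 3.42% lower. The largest decrease, that of PFN2, was 1.87-fold. In these bulk samples, a change in the share of cells with a transcript and a change in its amount per cell cannot be told apart.

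**Figure D1:**
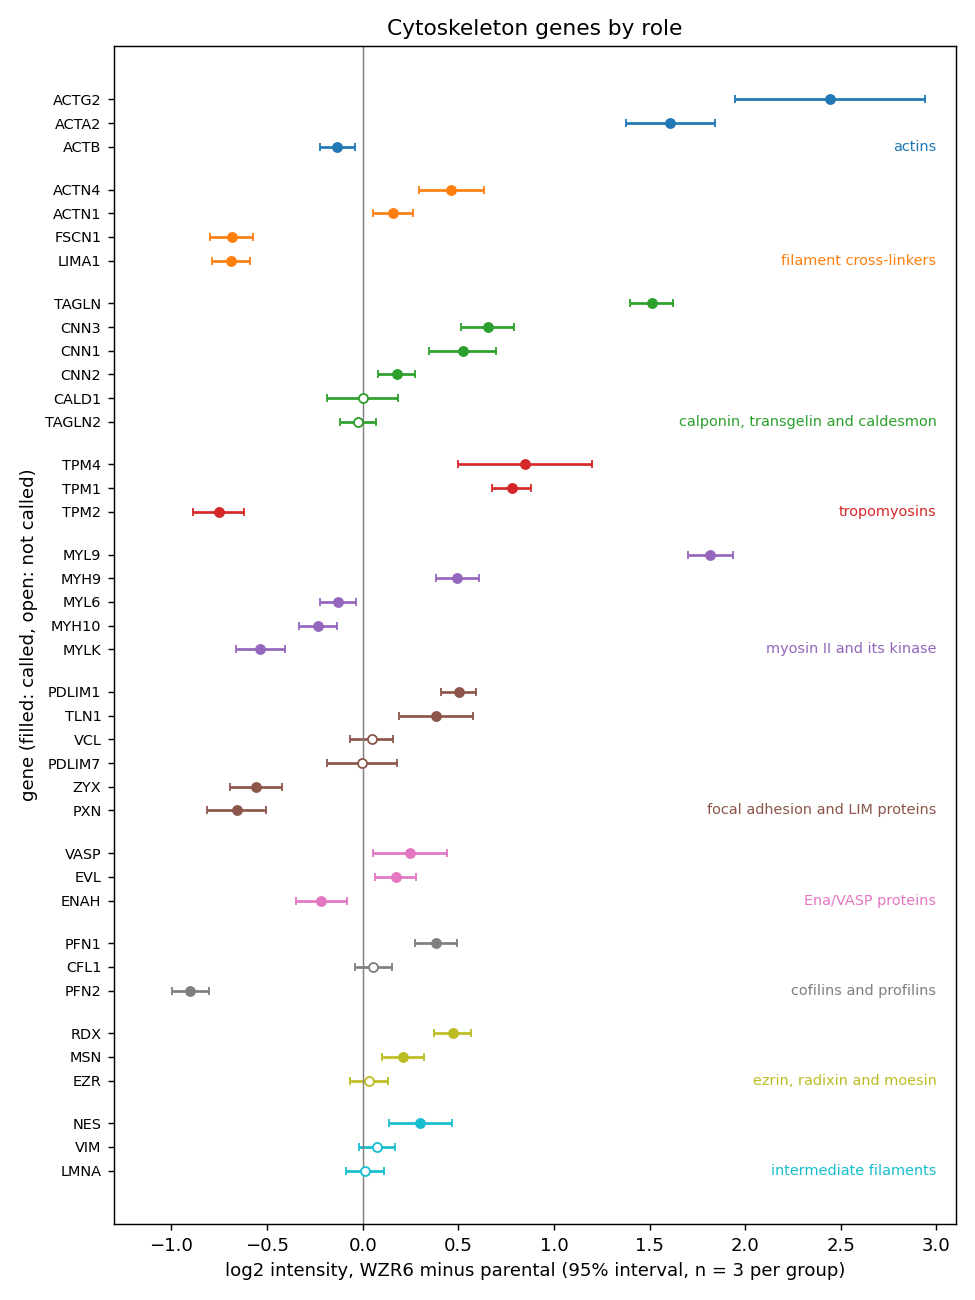
Log2 difference between WZR6 and parental cells for the 39 measured members, grouped by role, with 95% intervals from limma (3 arrays per group); filled points were called and open points were not. ACTG2, MYL9, ACTA2 and TAGLN lie to the right of 1, the other members between -0.90 for PFN2 and 0.85 for TPM4.

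The actins split by type. ACTG2, the enteric smooth muscle actin, read 6.09, 5.83 and 6.50 on the parental arrays and 8.73, 8.23 and 8.80 on the WZR6 arrays. Every WZR6 array lay above every parental array, although the arrays of each group were spread widely (SD 0.34 and 0.31). The rise was 5.44-fold (95% interval 3.85 to 7.67, adjusted p = 9.88e-05 in limma). With a floor at the median level of all values, which lies above the parental readings, the log2 difference was 1.21 in place of 2.44. ACTA2, the vascular smooth muscle actin that also marks myofibroblasts, read 8.01, 7.84 and 8.14 in parental cells and 9.45, 9.63 and 9.72 in WZR6. Its groups were well apart, and it rose 3.05-fold (2.59 to 3.58, adjusted p = 2.35e-05 in limma). A second ACTA2 probe set was dim, with means of 4.08 and 4.24, and was not called. As the mean of both probe sets ACTA2 rose by 0.88 on the log2 scale, in place of 1.61.

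ACTB, the cytoplasmic beta actin, moved slightly the other way. It read 14.91, 14.92 and 14.90 in parental cells and 14.78, 14.79 and 14.77 in WZR6, a fall by 0.13 ± 0.04 (SE, adjusted p = 0.0262 in limma). The groups did not overlap, but the call ended with median centring of the arrays, where the difference was -0.09 (adjusted p = 0.0960), and without parental replicate 1 or 2 or any 1 of the WZR6 arrays. A second ACTB probe set fell by 0.17. The array also carries 3 control probe sets along the ACTB transcript, which were left out of the tests. They differed by -0.29 at the 5′ end, -0.19 in the middle and -0.14 at the 3′ end. The 3′ minus 5′ difference of these controls, a measure of RNA integrity and labelling, was 1.49, 1.80 and 1.91 on the parental arrays and 1.89, 1.82 and 1.94 on the WZR6 arrays, and its part in the ACTB difference was not tested. ACTG1, the cytoplasmic gamma actin, had no probe set of its own. The 8 probe sets annotated to ACTB and ACTG1 together differed by 0.01 to 0.07, and 0 of them were called, or passed an unadjusted p under 0.05, where 41.1% of all probe sets were called.

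Smooth muscle actin and many other contractile genes are classic targets of serum response factor (SRF), which binds the CArG box. The box was therefore sought, with no mismatch, on both strands of the RefSeq promoter windows (GRCh38.p14, 250 bases before to 50 after a start site), in which its pattern is its own reverse complement. Windows were matched by symbol for 39 of the 44 members, and 7 of these genes (17.9%) held a CArG box, against 1.60% of all 27305 genes with a window. TAGLN, MYL9, ACTB, FSCN1 and PFN2 had no window in the table and were not searched. Among tested genes the share was 1.90% of those called higher, 1.87% of those called lower and 1.76% of those not called. The members with a box were ACTG2, which held a pair, and ACTN1, CNN2, TPM4, MYLK, ACTG1 and FLNA, the last 2 without a value of their own. Of the 5 with a value, MYLK was lower in WZR6 and the other 4 were higher. ACTA2, which also rose strongly, was searched and held no exact match. The list was chosen to hold classic contractile genes, so the share is a description of that choice. A match describes the letters of the window and does not show binding. The stretches below hold the boxes of the 3 raised members whose printed stretch, cut before the start site, lies outside the annotated gene body. They are on the plus strand, with the CArG boxes in capitals.
ACTG2, chr2:73892858-73892984: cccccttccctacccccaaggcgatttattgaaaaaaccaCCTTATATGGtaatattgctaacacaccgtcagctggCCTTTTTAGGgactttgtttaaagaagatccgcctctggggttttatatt
TPM4, chr19:16067325-16067414: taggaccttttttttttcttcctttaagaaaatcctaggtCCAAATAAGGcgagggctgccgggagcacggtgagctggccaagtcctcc
CNN2, chr19:1026479-1026568: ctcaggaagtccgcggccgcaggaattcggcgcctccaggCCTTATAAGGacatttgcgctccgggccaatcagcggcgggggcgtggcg
The first base of the box lies 110 and 73 bases before the start site in ACTG2, 173 in TPM4 and 89 in CNN2. The 3 genes differ widely in their response, from 2.44 for ACTG2 to 0.85 for TPM4 and 0.18 for CNN2 on the log2 scale.

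Of the 6 genes of the calponin, transgelin and caldesmon group, 4 were higher and 2 were not called. TAGLN encodes transgelin (SM22), an early smooth muscle protein. It read 8.55, 8.49 and 8.51 in parental cells and 10.09, 10.0005 and 9.99 in WZR6. The spread within each group was far smaller than the step between them, and the rise was 2.85-fold (2.63 to 3.08, adjusted p = 1.44e-06 in limma). Its widely expressed relative TAGLN2 differed by -0.02 ± 0.04 (SE, adjusted p = 0.656), with a 95% interval from -0.12 to 0.07.

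All 3 calponins rose. CNN3, the acidic calponin, rose 1.57-fold, from 11.05 ± 0.07 (SD) to 11.71 ± 0.07. CNN1, the smooth muscle calponin, rose by 0.52 ± 0.07 (SE, limma adjusted p = 0.0010), but its parental mean, 4.87, lay below the lower quartile. Its call ended with the floor, which lies above all its readings and left no difference. CNN2 rose by 0.18 ± 0.04. CALD1, caldesmon, which restrains myosin on actin, read 12.87, 12.87 and 13.01 in parental cells and 12.85, 12.84 and 13.07 in WZR6. The groups overlapped, and 0 of its 8 probe sets were called in limma, 2 of them having an unadjusted p under 0.05. Their differences ran from -0.26 to 0.38.

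The tropomyosins went both ways. TPM4 read 11.37, 11.79 and 11.39 in parental cells and 12.52, 12.45 and 12.12 in WZR6, and rose 1.80-fold (1.41 to 2.30, adjusted p = 0.0028 in limma). Its arrays were less tight than those of TPM1, but the groups stayed apart. TPM1, the alpha tropomyosin gene, whose transcripts are spliced differently in muscle and other cells, rose 1.72-fold on its brightest probe set, from 12.74, 12.71 and 12.77 to 13.48, 13.52 and 13.56. All 4 TPM1 probe sets were called, with differences of 0.70 to 1.04. TPM2, beta tropomyosin, read 8.80, 8.65 and 8.80 in parental cells and 8.004, 7.97 and 8.02 in WZR6. It fell 1.69-fold (1.54 to 1.85, adjusted p = 5.07e-05 in limma). The fall was seen on 1 of its 2 probe sets; the other differed by -0.15, their mean by -0.45, and TPM2 was not called (adjusted p = 0.132) without probe sets whose names end in _x_at or _s_at (designs that may pick up more than 1 transcript). TPM3 had no probe set named for it here and was not analysed.

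The 4 myosin II genes and the kinase MYLK were all called, 2 higher and 3 lower. MYL9, the regulatory light chain of smooth muscle and nonmuscle myosin II, read 8.77, 8.78 and 8.77 in parental cells and 10.64, 10.62 and 10.51 in WZR6. The parental arrays agreed closely and the WZR6 arrays were all higher, by 3.52-fold (3.25 to 3.82, adjusted p = 8.10e-07 in limma). MYH9, the heavy chain of nonmuscle myosin IIA, rose by 0.49 ± 0.05 (SE). MYH10, the IIB heavy chain, fell by 0.23 ± 0.04 on the brighter of its 2 probe sets, and was not called as their mean (-0.06, adjusted p = 0.60).

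MYLK encodes the kinase that phosphorylates the regulatory light chain. It read 9.93, 10.01 and 9.99 in parental cells and 9.41, 9.53 and 9.39 in WZR6, a 1.45-fold fall (1.33 to 1.59, adjusted p = 2.12e-04 in limma). The MYLK transcript was thus lower where that of MYL9 was higher. MYL5, MYL12A and MYL12B, further light chain genes, differed by 0.16, -0.09 and -0.06 and were not called. Kinase protein and activity were not measured. MYL6, the essential light chain, differed little, with a fall by 0.13 ± 0.04 (SE, adjusted p = 0.0305). That call ended without any 1 of the 6 arrays, with median centring, as the mean of its probe sets, without _x_at or _s_at designs and with the replicate number as a block (adjusted p up to 0.631).

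**Figure D2:**
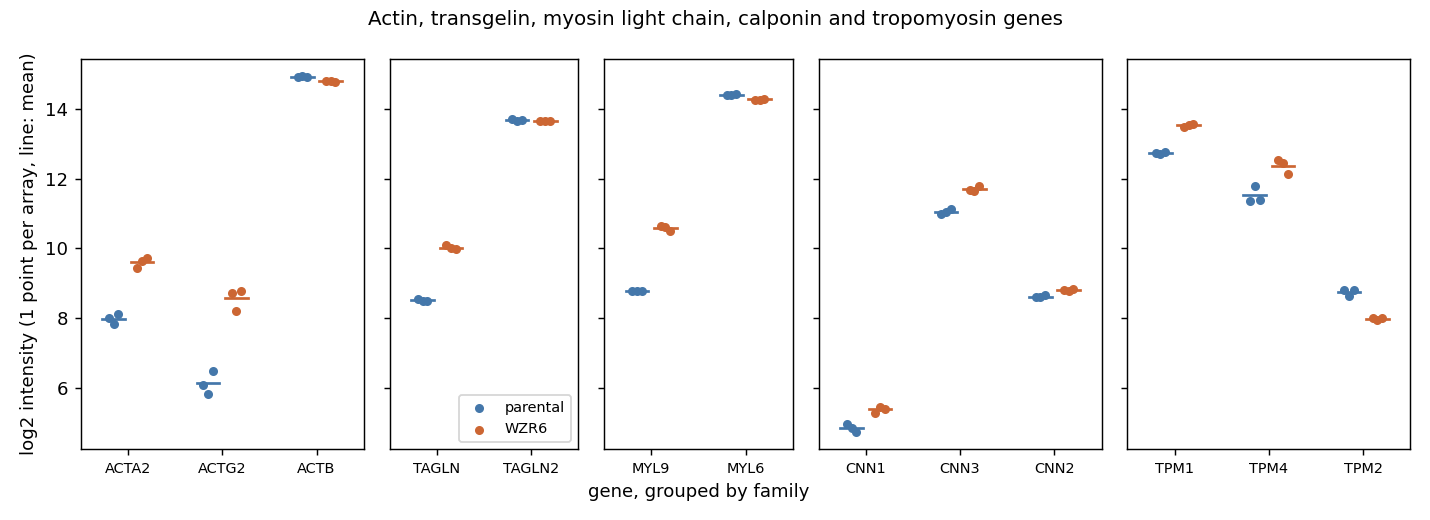
Log2 intensity on each of the 6 arrays for members of the actin, transgelin, myosin light chain, calponin and tropomyosin families; points are arrays, short lines group means, and heights are not comparable between genes. ACTA2, ACTG2, TAGLN and MYL9 show a clear step up in WZR6, TPM2 a step down, and ACTB, TAGLN2 and MYL6 lie almost level.

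The filament cross-linkers were called in all 4 measured cases, 2 in each direction. LIMA1, which bundles filaments and slows their disassembly, read 12.16, 12.19 and 12.15 in parental cells and 11.45, 11.47 and 11.52 in WZR6. It fell 1.61-fold (1.5 to 1.73, adjusted p = 2.52e-05 in limma). FSCN1, fascin, the bundling protein of filopodia, also fell 1.61-fold, with both probe sets called (-0.69 and -0.55). ACTN4, alpha-actinin 4, read 9.65, 9.60 and 9.44 in parental cells and 10.11, 10.03 and 9.94 in WZR6. The groups did not overlap, and it rose by 0.46 ± 0.07 (SE, adjusted p = 0.0015 in limma). ACTN1, alpha-actinin 1, rose by 0.16 ± 0.04, a call lost without parental replicate 1 or 2 or WZR6 replicate 3 (adjusted p up to 0.0623). Of its 2 dimmer probe sets, the one at 0.37 was called and the one at 0.26 was not, and the mean of all 3 was called at 0.26. The filamins FLNA and FLNC had no probe set named for them here and were not analysed.

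Focal adhesion and LIM domain proteins were split evenly, with 2 higher, 2 lower and 2 not called. PDLIM1, which binds alpha-actinin, read 12.42 on each parental array and 12.92, 12.92 and 12.93 in WZR6. These were among the tightest readings of the list, and the rise was 1.42-fold (1.33 to 1.51, adjusted p = 5.99e-05 in limma). TLN1, talin 1, which links integrins to actin, rose by 0.38 ± 0.08 (SE). PXN, the adaptor paxillin, read 9.63, 9.77 and 9.86 in parental cells and 9.06, 9.12 and 9.11 in WZR6. It fell 1.58-fold (1.42 to 1.76, adjusted p = 1.89e-04 in limma), while its second, dimmer probe set differed by -0.24 and was not called. ZYX, zyxin, a sensor of filament tension, fell 1.47-fold with both probe sets called.

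VCL, vinculin, gave a divided reading. Its brightest probe set differed by 0.05 ± 0.05 (SE, adjusted p = 0.471), whereas a dimmer one rose by 0.91, from 7.02 to 7.92, and the mean of the pair was called at 0.48. PDLIM7 was not called on its brightest probe set, and 1 of its 5 probe sets fell by 0.29.

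Among the Ena/VASP proteins, which let filaments grow at their tips, VASP and EVL were higher and ENAH was lower, all by less than 1.20-fold. VASP read 8.74, 8.75 and 8.62 in parental cells and 8.999, 9.07 and 8.79 in WZR6. The lowest WZR6 array lay just above the highest parental array, with a difference of 0.25 ± 0.08 (SE, adjusted p = 0.0409 in limma). VASP was not called with cyclic loess, with the floor, or without any parental array or WZR6 replicate 1 or 2. The floor lies below its readings and left them unchanged. ENAH read 12.29, 12.22 and 12.37 in parental cells and 12.06, 12.03 and 12.14 in WZR6, a fall by 0.22 ± 0.06. The ENAH call ended without WZR6 replicate 1 or 2, and that of EVL without parental replicate 2 or WZR6 replicate 2.

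The profilins, which feed actin monomers to growing ends, moved in opposite directions. PFN2, the form best known from brain, read 11.32, 11.26 and 11.27 in parental cells and 10.39, 10.38 and 10.37 in WZR6. The groups were far apart for their spread, and PFN2 fell 1.87-fold (1.75 to 2.00, adjusted p = 6.42e-06 in limma). PFN1, the form found in most cells, read 12.84, 12.76 and 12.74 in parental cells and 13.18, 13.14 and 13.17 in WZR6, a rise by 0.38 ± 0.05 (SE, adjusted p = 4.59e-04). CFL1, the filament-severing cofilin 1, differed by 0.06 ± 0.04 (adjusted p = 0.300). It was called with the floor and with an intensity trend, at a limma adjusted p of 0.0492 and 0.0431. The floor left the readings of CFL1 unchanged, so its call there changed through the fit over all genes. CFL2 had no probe set named for it here and was not analysed.

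Ezrin, radixin and moesin tie the actin cortex to the membrane. RDX, radixin, read 11.79, 11.79 and 11.80 in parental cells and 12.24, 12.25 and 12.30 in WZR6. It rose 1.39-fold (1.29 to 1.48, adjusted p = 1.05e-04 in limma), with all 3 probe sets called. MSN, moesin, rose by 0.21 ± 0.05 (SE). EZR, ezrin, differed by 0.04 ± 0.04 (adjusted p = 0.539), and 0 of its 5 probe sets were called in limma, 1 of them having an unadjusted p under 0.05.

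Of the 3 intermediate filament genes, 1 was higher and 2 were not called. NES, nestin, a filament protein of progenitor cells, read 8.92, 9.001 and 8.97 in parental cells and 9.30, 9.13 and 9.37 in WZR6. It rose 1.23-fold (1.10 to 1.38, adjusted p = 0.0100 in limma). VIM, vimentin, often used as a marker of mesenchymal cells, was bright in both groups, at 14.72, 14.77 and 14.74 in parental cells and 14.83, 14.81 and 14.82 in WZR6. The groups did not overlap, but the difference was 0.08 ± 0.04 (SE, adjusted p = 0.167), with a 95% interval from -0.02 to 0.17. VIM was called with median centring, with the floor and with an intensity trend, at 0.08 to 0.12. The floor left its readings unchanged. LMNA, which encodes the A-type lamins, differed by 0.01 ± 0.04 (adjusted p = 0.849), and 0 of its 4 probe sets were called or passed an unadjusted p under 0.05 in limma.

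Of the 18 members with more than 1 probe set of their own, 6 had every probe set called the same way, 7 had some called and 5 had none called. In 0 of them were probe sets called in opposite directions. Over all 75 probe sets of the members, 42 were called, where 41.1% of all probe sets were called.

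**Figure D3:**
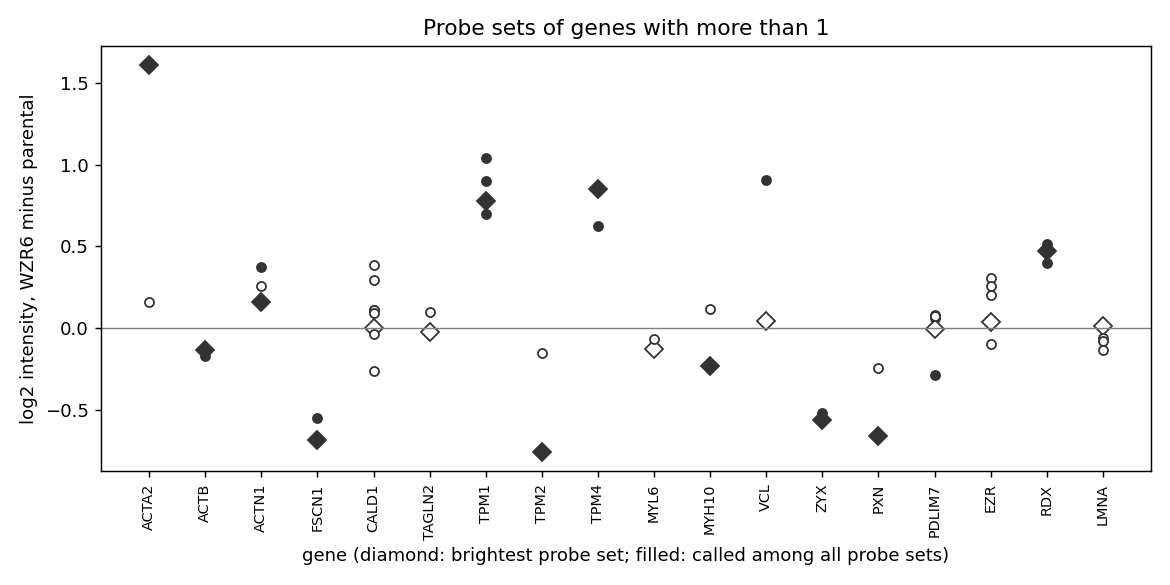
Log2 difference of every own probe set for the 18 members with more than 1; diamonds mark the brightest probe set and filled symbols those called among all probe sets. TPM1, RDX, ZYX and FSCN1 were called on every probe set, whereas VCL was called on its dimmer one alone, with a difference of 0.91 beside 0.05.

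Each member was also set beside the median difference of the 20 nearest measured genes on its chromosome. The 4 members raised by 2-fold or more stood well above their neighbours, whose medians were 0.16 for ACTG2, -0.16 for ACTA2, -0.20 for TAGLN and 0.35 for MYL9. For 5 of the 31 called members the 95% interval of the gene held the median of its neighbours. These were MYL6, VASP, ENAH, RDX and MSN, and the part of the neighbourhood in their values was not tested. RDX rose by 0.47 beside a neighbour median of 0.49. FSCN1 and ACTB lie near each other, with neighbour medians of -0.52 and -0.57. FSCN1 fell by 0.69, somewhat more than its surroundings, and ACTB by 0.13, much less.

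**Figure D4:**
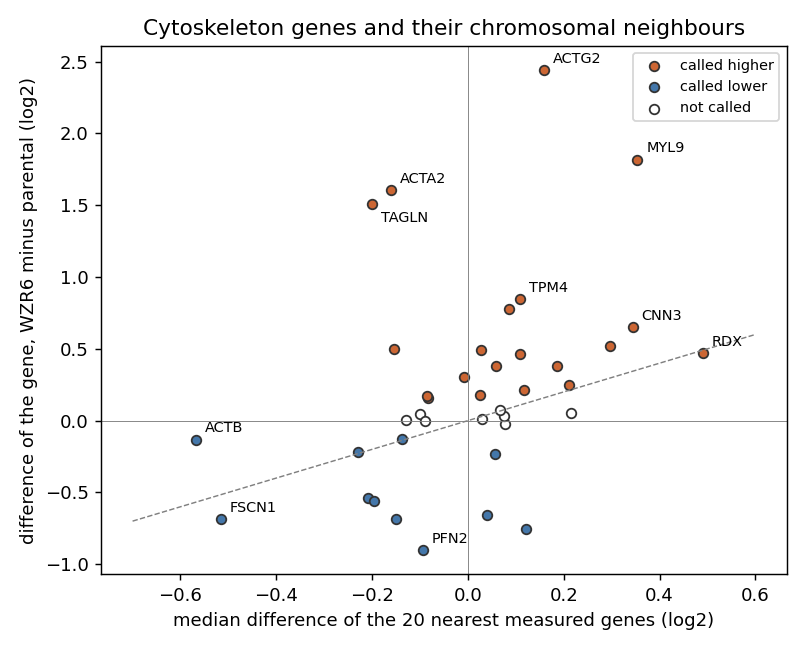
Log2 difference of each of the 39 measured members (vertical axis) against the median difference of its 20 nearest measured genes (horizontal axis); the dashed line marks equal values and colours mark the call. ACTG2, MYL9, ACTA2 and TAGLN lie far above the line, RDX lies on it at 0.47 against 0.49, and PFN2 lies well below it.

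Other genes of the actin and intermediate filament system were read from 7 lists. Of 103 measured genes, 28 were higher, 37 were lower and 38 were not called, with a median difference of -0.03. At 2-fold or more, 2 were higher and 9 were lower. Decreases also outnumbered increases at that size over all genes, with 3.42% lower and 1.36% higher. All members called at that size were higher, and the contrast with these lists was not tested.

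The SRF gene itself rose by 0.51 ± 0.04 (SE) and its coactivator MRTFB fell by 0.62 ± 0.04, while MRTFA, named after its value was seen, differed by 0.08 ± 0.07 (limma adjusted p = 0.411). The mean of the SRF probe sets rose by 0.33.

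The Arp2/3 complex, which builds branched filaments at the leading edge, and proteins that act on it were higher for 2 of 18 genes, lower for 7 and not called for 9. The Arp2/3 subunit ARPC1B fell 2.70-fold, CTTN (cortactin, which stabilises branches) 1.99-fold and CORO1B (a coronin, which takes branches apart) 1.95-fold, CORO1B beside a neighbour median of -0.67. As the mean of its probe sets CTTN fell by 0.56 on the log2 scale, in place of 0.99. Capping, severing and monomer-binding genes were higher for 4 of 20, lower for 5 and not called for 11; ADD3, an adducin, fell 2.16-fold, TWF1, a twinfilin, fell 1.61-fold and the capping protein subunit CAPZB rose 1.64-fold.

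Other cross-linkers and membrane linkers were higher for 9 of 18, lower for 6 and not called for 3. ANK3, ankyrin-G, which anchors membrane proteins of epithelial cells to spectrin, fell 8.16-fold, the bundling protein LCP1 fell 1.91-fold and the band 4.1 relative EPB41L2 rose 2.10-fold. ANK3 read 5.32 in WZR6, near the lower quartile, and its log2 difference of -3.03 became -0.97 with the floor and -1.67 as the mean of its probe sets. Other focal adhesion and LIM proteins were higher for 9 of 22, lower for 10 and not called for 3. FHL2, a LIM-only cofactor, read 10.95 ± 0.09 (SD) in parental cells and 7.15 ± 0.07 in WZR6, a 13.9-fold fall (12.5 to 15.4, adjusted p = 1.58e-07 in limma) that was the largest change of the 7 lists. LPP, a relative of zyxin, rose 2.91-fold, and PDLIM4 fell 2.74-fold, although a PDLIM4 probe set of another type differed by 0.11 and was not called.

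Other myosins were higher for 2 of 12, lower for 6 and not called for 4. The cargo-carrying and membrane myosins MYO6, MYO5C and MYO1D fell 10.1-fold, 6.72-fold and 4.03-fold, and the WZR6 mean of MYO1D, 4.18, lay below the lower quartile. With the floor the log2 differences of MYO6 and MYO5C were -1.94 and -1.37, in place of -3.33 and -2.75. MYO1D, LCP1 and INA read below the floor on every array, so it left no difference and their calls ended. Other intermediate filament genes were higher for 1 of 10, lower for 2 and not called for 7. INA (internexin) fell 1.82-fold, LMNB1 (lamin B1) fell 1.24-fold and PRPH (peripherin) rose 1.27-fold. The LMNB1 call ended with the replicate number as a block (limma adjusted p = 0.0688). It was also lost without parental replicate 2 or 3 or WZR6 replicate 2 or 3, and with the floor, which left the LMNB1 readings unchanged.

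Markers of other cell types that express contractile genes were read beside these values. Of 8 measured smooth muscle and pericyte markers, PDGFRB and RGS5 rose by 0.66 and 0.56, SMTN fell by 0.20 and 5 were not called, among them the smooth muscle heavy chain MYH11 at 5.86 ± 0.12 (SD) and 5.98 ± 0.25. Their summed intensity lay between 789 and 817 on the parental arrays and between 895 and 915 on the WZR6 arrays, and their part in the rise of ACTA2, ACTG2, TAGLN and MYL9 was not tested. Of 6 striated muscle markers 0 were called in limma, 1 had an unadjusted p under 0.05, and 4 had both means below the lower quartile. Fibroblast markers were higher for 0 of 8 and lower for 2, COL1A1 and COL1A2, with a summed intensity of 2142 to 2341 in parental cells and 1163 to 1170 in WZR6. Endothelial markers were higher for 1 of 5 (CDH5) and leukocyte markers lower for 1 of 4 (CD14). Epithelial markers, which define the labelled line, were lower for 6 of 7, and the remaining one, KRT18, read 14.14 ± 0.04 (SD) and 14.02 ± 0.04. The epithelial surface proteins EPCAM and CDH1 fell from 12.43 and 12.01 to 6.17 and 6.32 in WZR6, and the part of this in the contractile gene values was not tested. No marker stood at 0 on any array, since an array reports a background intensity for every probe set.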

How the data were processed

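Per the submitters' processing notes, the authors made the deposited intensity values with RMA, which corrects background, quantile normalizes the arrays and summarizes the probes of a probe set. No source used here gives its version or settings. The table holds 1 linear intensity per probe set and array. Intensities were converted to log2 with no offset and no further normalization. From 22277 probe sets, 62 controls were left out and 22215 were tested. The platform annotation gave 1 gene for 19064, several for 1043 and none for 2108; names came from probe sets with 1 gene, of which 19052 were matched to RefSeq (GRCh38.p14) by Entrez identifier. The gene-level fit used each gene's brightest probe set over 6 arrays.

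Titles gave the groups. The comparison of WZR6 with parental cells was fitted in R 4.3.3 by limma 3.58.1 (lmFit and eBayes). The members, role groups and lists were chosen with earlier results of these data known. Every member was to be accounted for, with values on each array for members called at 2-fold or more and for the largest called rise and fall of each role group, and up to 3 called genes per further list. Alternatives were 3 normalizations, a filter, a floor, an offset of 50, another variance model, a replicate block, other probe set rules and leaving out each array. On simulated data (11963 genes, 100 changed by each amount) the fit recovered 74 of 100 genes changed by 0.5 log2 and 93 of 100 changed by 1 log2, with 7.73% of calls false. Only those genes were changed there, whereas 48.0% of genes were called in the data. Each gene's spread was set to its observed value. These rates therefore need not hold for the measured arrays. A further list of genes is not reported here. Promoter windows were read from RefSeq's table, and figures were drawn with matplotlib 3.10.9.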

Additional observations from a re-analysis of the deposited data

How the results depend on the processing

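Of the 31 called members, 22 kept their call and direction under every alternative that could be run for them, among them ACTA2, ACTG2, TAGLN, MYL9, TPM1, TPM4, PFN2, FSCN1 and LIMA1, and no called member changed direction. Of these 22, TAGLN, MYL9, PFN2, FSCN1, LIMA1, MYLK, MYH9, PDLIM1 and TLN1 were read only from _s_at probe sets. CNN2 and ZYX had no probe set outside the _x_at and _s_at designs. All of these members could not be run without such designs. Their values therefore rest wholly on designs that may pick up more than 1 transcript. Leaving out _x_at and _s_at probe sets left 23 members to measure, of which 13 were higher and 2 lower, and 15 of the members' probe sets were called, while 17 of the genes on the 7 further lists were higher; fewer probe sets were tested there. Under that alternative 41.7% of the 8369 genes measured were called, and PDLIM4 differed by 0.11, opposite to its reported fall. Without 1 array at a time, 17 to 19 members were higher and 8 to 10 lower, where 42.2% to 45.5% of all genes were called. Median centring lowered the share of decreases among all calls from 49.0% to 42.2% and cyclic loess raised it to 54.1%. The members then split into 21 higher and 9 lower, and 19 higher and 11 lower. Of all genes, 49.5% and 47.9% were called in these 2 settings. Replicate numbers do not pair the samples by the labels, and the deviations of same-numbered arrays correlated at -0.01, 0.12 and 0.23. With the replicate number as a block, 47.9% of all genes were called, and 20 members were higher and 10 lower. Of the genes named, the calls of MYL6 and LMNB1 were lost there. Low signal limits CNN1 and ACTG2, neither of them measured where genes had to exceed the median level, and 3 arrays per group limit the precision of every value.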
